A study of Homo sapiens with 3 samples.

Results

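The 7 transcripts described here are mRNAs that have been reported as cut by IRE1: BLOC1S1, SPARC, SCARA3, COL6A1, PDGFRB, PMP22 and HGSNAT. They were taken by gene name from the deposited tables, which list 58243 genes. All 7 had a mean of 20 or more reads over the 3 libraries, as did 14244 genes in all. The cells were labelled LoVo, a human colorectal carcinoma line, with an epithelial cell type. They carried a Tet-On (doxycycline-inducible) short hairpin RNA against HRD1, the ubiquitin ligase encoded by SYVN1, and received doxycycline at 1 µg/ml for 0, 3 or 5 days. The day 0 cells carry the hairpin too, and cells given doxycycline without the hairpin were not analysed here. There was 1 library per time, and the labels do not say whether the times were separate cultures or whether the line was 1 clone. No replicate error can therefore be given, no test was made, and every interval below covers counting error only.

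IRE1, encoded by ERN1, is a sensor of unfolded protein in the endoplasmic reticulum (ER) membrane whose RNase domain cuts XBP1 mRNA, so that the ligated form encodes an active transcription factor. The same RNase cuts some other mRNAs at the ER membrane, whose pieces are then degraded, a process called regulated IRE1-dependent decay (RIDD). HRD1, with its partner SEL1L, takes misfolded proteins out of the ER for degradation and is known to act on IRE1 itself. A transcript's level in total RNA reflects synthesis as well as decay, and in a culture sampled whole, fewer cells that make an RNA and less RNA per cell cannot be told apart.

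IRE1 cuts at a short core, most often CTGCAG in the DNA alphabet (CUGCAG in RNA), held in the loop of a hairpin. In the GENCODE 29 reference transcripts (GRCh38, sense strand only), CTGCAG occurred 3 times in BLOC1S1, 2 times in SPARC, 7 times each in SCARA3, COL6A1 and PDGFRB, 2 times in PMP22 and 6 times in HGSNAT. The core alone is common: 82.1% of 19652 protein-coding transcripts, 1 per gene, held it. A narrower search, added after the core was counted, asked for CNGCAGN as a 7-base loop closed by at least 4 base pairs, G-U pairs allowed. It found 1 such loop each in BLOC1S1, COL6A1, PDGFRB and PMP22, none in SPARC, SCARA3 or HGSNAT, and the 2 cut sites of XBP1. Over all 19652 transcripts, 12.9% held at least 1. Among transcripts within 10% of the member's length the share was 3.41% for BLOC1S1 (293 transcripts), 14.4% for COL6A1 (1946), 20.7% for PDGFRB (1398) and 9.51% for PMP22 (1893). The 30-base coding windows around these loops are shown because they passed this search, as the 2 XBP1 sites did. Likeness to the XBP1 sites was not measured beyond that. Capitals mark the core, and a match describes the letters and is not evidence of cutting.
XBP1, first site: ggtctgctgagtCCGCAGcactcagactac
XBP1, second site: ctacgtgcacctCTGCAGcaggtgcaggcc
BLOC1S1: tacaaagggcagCTGCAGtctgccccttcc
PDGFRB: agcacactgcgtCTGCAGcacgtggatcgg
COL6A1: agcggcacgggcCAGCAGcgcccagagcgg
PMP22: ccaaacgaatggCTGCAGtctgtccaggcc

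The XBP1 windows lie on the minus strand at chr22:28796138-28796167, with a stem of 6 pairs, and chr22:28796112-28796141, with 7 pairs. The BLOC1S1 window is at chr12:55719577-55719606 on the plus strand, in exon 4 of 4, with 6 pairs. The PDGFRB window is at chr5:150129830-150129859 on the minus strand, in exon 10 of 23, also with 6 pairs. The COL6A1 window, at chr21:46003561-46003590 on the plus strand in exon 35 of 35, has 4 pairs and the core CAGCAG. The PMP22 window spans an exon junction. Its core is at chr17:15239601-15239606 on the minus strand, in exon 4 of 5, with 4 pairs.

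The libraries held 21308785, 22068686 and 25754188 total gene reads at day 0, day 3 and day 5, and 3 reads corresponded to between 0.114 and 0.140 CPM (counts scaled to the normalised library size). SYVN1, the gene the hairpin targets, was at 56.1, 30.4 and 27.0 CPM, which follows the labels. The epithelial label had mixed support: 3 of 12 epithelial and colon markers, the keratins KRT8, KRT18 and KRT19, reached 1 TPM (the authors' level per transcript length), while EPCAM had 17, 14 and 19 reads. CDH1 had 3, 2 and 10 reads, and CDX1 and CDX2 had 0 in every library. KRT20, VIL1, CDH17, LGALS4 and CEACAM5, the rest of that list, had at most 16 reads in any library. Beyond KRT8, KRT18 and KRT19 the list therefore gave no support for the colorectal label, and the identity of the line was not tested. The epithelial and colon markers summed to between 1298 and 1415 TPM, nearly all of it KRT8, KRT18 and KRT19. Of 12 mesenchymal markers 4 reached 1 TPM in each library, and the list summed to between 3630 and 4174 TPM, most of it VIM. Markers of liver, intestine and blood, 15 genes, summed to 8, 46 and 683 reads, and their part in the day 5 values was not tested.

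Per length, COL6A1 was the highest of the 7 in every library, between 97.0 and 119 TPM, and PDGFRB the lowest, between 1.23 and 3.29 TPM. PMP22 lay between 55.7 and 62.5 TPM and BLOC1S1 between 47.0 and 58.9 TPM, so these neighbours overlapped over the 3 libraries. SPARC lay between 25.3 and 32.0 TPM, HGSNAT between 12.6 and 13.6 TPM and SCARA3 between 6.35 and 7.79 TPM. No other neighbouring pair in this order overlapped.

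**Figure D1:**
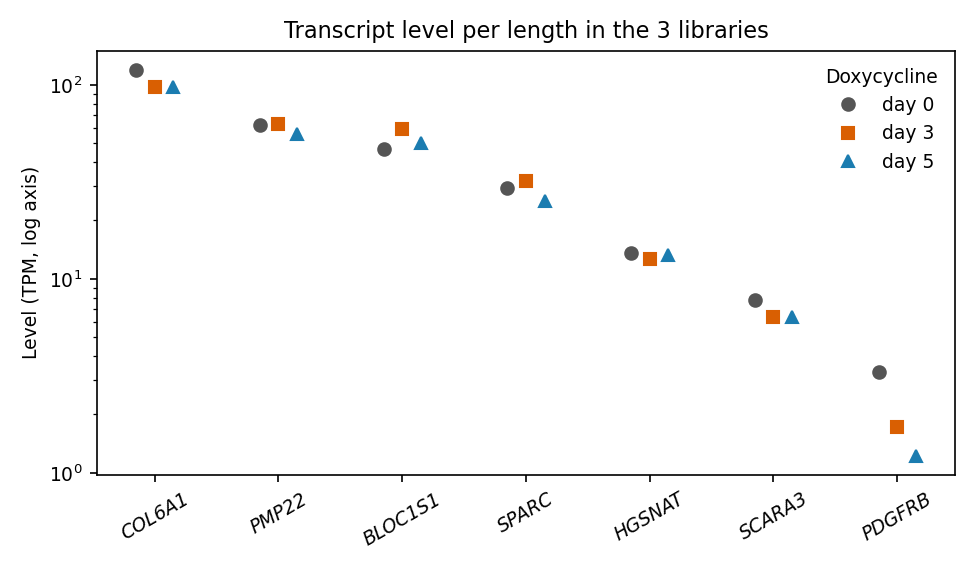
Level per length (TPM, log axis) of the 7 transcripts in the day 0, day 3 and day 5 libraries, 1 point per library, ordered by median. The 3 points of a gene lie close together except for PDGFRB, which goes from 3.29 TPM at day 0 to 1.23 TPM at day 5.

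At day 3 the 7 transcripts lay on both sides of day 0, and at day 5 most lay below it by small amounts. Of the 7, 4 had a log2 ratio below 0 at day 3 and 6 at day 5, where 48.9% and 48.6% of all genes did. A gene was counted as changed when its ratio was at least 1.5-fold with a 95% counting interval excluding 1. By that rule 1 of 7 was lower and 0 of 7 higher at day 3 over day 0, where 3.52% of the 14244 genes were lower and 2.02% higher. At day 5 over day 0 the same counts were 1 and 0, beside 2.08% of genes lower and 2.68% higher. PDGFRB was the member counted at both times. These 2 comparisons share the day 0 library.

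Without a minimum fold, 2 of 7 members had an interval wholly below 1 at day 3 (COL6A1 and PDGFRB) and 3 of 7 wholly above it (BLOC1S1, SPARC and PMP22), beside 19.6% and 23.1% of all genes. At day 5 over day 0 there were 3 of 7 wholly below 1 (SPARC, COL6A1 and PDGFRB) and 0 above, beside 20.8% and 21.3%. The median log2 ratio of the 7 was 0.00 at day 3 and -0.20 at day 5, while the median over all genes was 0.01 at both times.

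**Figure D2:**
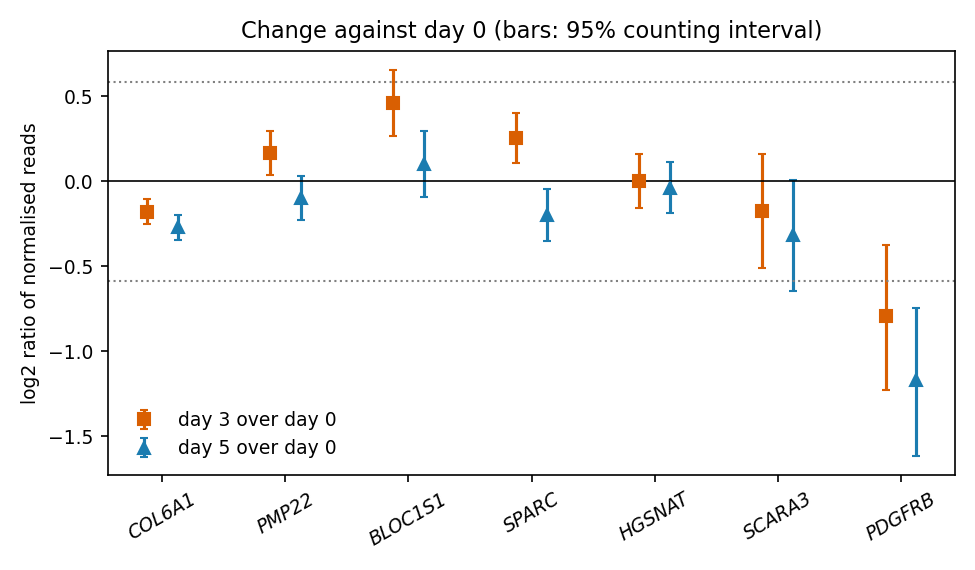
Log2 ratio of normalised reads against day 0 for each transcript at day 3 (squares) and day 5 (triangles), with 95% counting intervals as bars and dotted lines at 1.5-fold. PDGFRB alone lies beyond a dotted line, with -0.79 at day 3 and -1.17 at day 5. BLOC1S1 is the highest at both times in total reads, but with unique reads it was -0.14 at day 5 and not the highest.

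BLOC1S1 is the member most widely used as a readout of RIDD. It encodes a subunit shared by BLOC-1 and BORC, complexes that act in the making and positioning of lysosome-related organelles and lysosomes (ENSG00000135441, chr12:55716037-55720087, plus strand). It had 387, 526 and 504 reads, or 17.9, 24.6 and 19.2 CPM. Day 3 was therefore the highest of the 3 libraries, and day 0 the lowest. The log2 ratio was 0.46 at day 3 (0.27 to 0.65), with 95.5% of the 14244 genes below it, and 0.10 at day 5 (-0.09 to 0.30). With smooth trends of the ratio on gene length and GC content taken out, it was 0.32 at day 3 and 0.14 at day 5.

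Many BLOC1S1 reads were not placed uniquely: 227 (58.7%), 317 (60.3%) and 247 of its reads were unique at day 0, day 3 and day 5, against at least 98.6% of reads for every other member. AC009779.3, which overlaps it on the same strand, had 90, 108 and 111 reads, of which 16, 15 and 13 were unique. ITGA7 overlaps it on the opposite strand and had 14, 8 and 19 reads. The labels do not say that counting used strand, which could separate ITGA7 but not AC009779.3. Where else the BLOC1S1 reads that were not unique map was not examined, so the BLOC1S1 values are uncertain to that extent. With unique reads only, the log2 ratio was 0.49 at day 3 and changed sign at day 5, to -0.14 (-0.41 to 0.12).

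Of the 13 BLOC-1 and BORC subunits measured, BLOC1S1 among them, 0 passed the 1.5-fold rule at either time. At day 3, 5 had an interval above 1 and 0 below, beside 23.1% and 19.6% of all genes. At day 5 there were 3 above and 2 below, beside 21.3% and 20.8%. The median log2 ratio of the 13 subunits was 0.17 at day 3 and 0.09 at day 5. BORCS8 was lowest at day 5, at -0.56 (-0.76 to -0.37), and BLOC1S6 highest, at 0.48 (0.36 to 0.61), but 30.8% and 22.2% of their reads were unique. BORCS7 was 0.34 at day 5 with 15.5% of reads unique.

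SPARC encodes a secreted calcium-binding glycoprotein of the extracellular matrix (ENSG00000113140, chr5:151661096-151687165, minus strand). It had 707, 834 and 748 reads, or 32.7, 39.1 and 28.5 CPM. The day 3 library was the highest and the day 5 library the lowest. The log2 ratio to day 0 was 0.26 at day 3 (0.11 to 0.40) and -0.20 at day 5 (-0.35 to -0.05), so the intervals lay on opposite sides of 0. Day 5 over day 3 was -0.45 (-0.60 to -0.31), the lowest of the 7 in that comparison. In its family, FSTL1, a secreted follistatin-like protein, was at 0.22 at day 3 (0.07 to 0.36) and -0.06 at day 5, with 41.3% of its reads unique. SPOCK1, a secreted proteoglycan, had 34, 21 and 33 reads and intervals that included 1.

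COL6A1 encodes the alpha-1 chain of collagen VI, a microfibrillar collagen of the matrix around cells (ENSG00000142156, chr21:45981737-46005050, plus strand). It had 3221, 2808 and 3239 reads, or 149, 131 and 123 CPM. Day 0 was the highest library. The log2 ratio was -0.18 at day 3 (-0.25 to -0.11) and -0.27 at day 5 (-0.34 to -0.20), intervals kept narrow by the depth of this gene. Once smooth trends of the ratio on gene length and GC content were taken out, the day 5 value was -0.13 (-0.20 to -0.06). COL6A2, the alpha-2 chain of the same trimer, had 1069, 1023 and 949 reads and was at -0.05 at day 3 (-0.17 to 0.08) and -0.45 at day 5 (-0.58 to -0.33). COL6A3 had 21, 9 and 10 reads, too few for the comparison.

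PDGFRB encodes the beta receptor for platelet-derived growth factors, a receptor tyrosine kinase best known in pericytes and other mesenchymal cells (ENSG00000113721, chr5:150113837-150155872, minus strand). It had 130, 74 and 70 reads, all unique, or 6.02, 3.47 and 2.67 CPM. Both doxycycline libraries lay below day 0. The day 3 level was 0.578 of day 0 (0.427 to 0.772; log2 -0.79), and the day 5 level was 0.445 of day 0 (0.327 to 0.597; log2 -1.17). Of the 14244 genes, 2.25% had a lower ratio at day 3 and 0.407% at day 5. Day 5 over day 3 was -0.38 on the log2 scale (-0.87 to 0.11), an interval that includes no difference. Over 8 other ways of computing the ratio, the log2 values lay between -0.86 and -0.76 at day 3, and between -1.41 and -1.04 at day 5.

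No other of the 6 measured genes of the PDGF system passed the 1.5-fold rule. PDGFRL, a receptor-like protein, had 61, 89 and 83 reads and was at 0.56 at day 3 (0.08 to 1.06) and 0.16 at day 5 (-0.33 to 0.66). The ligand gene PDGFC was at 0.05 at day 3 and 0.17 at day 5 (0.10 to 0.24). The intervals of the ligand genes PDGFA, PDGFB and PDGFD included 1 at both times, and PDGFRA, the alpha receptor, had 1, 1 and 0 reads. Markers of pericytes and smooth muscle, 6 genes measured, summed to 71.2, 63.4 and 62.6 TPM, with 2 of 6 at 1 TPM or more in each library and none at 0 reads. MCAM alone made up 67.9, 60.0 and 59.6 TPM of these sums. The median log2 ratio of the 4 of these markers with a mean of 20 or more reads was -0.15 at day 3 and 0.20 at day 5. They went both ways, between -0.49 and 0.31 at day 3 and between -0.34 and 0.70 at day 5. MYH11 was at 0.58 at day 5, with 31.5% of its reads unique. MCAM was at 119, 115 and 105 CPM in the 3 libraries, and NOTCH3 at 2.18, 1.55 and 1.71 CPM. The part of these markers in the PDGFRB values was not tested.

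SCARA3 encodes a scavenger receptor-like membrane protein linked to oxidative stress (ENSG00000168077, chr8:27633868-27676776, plus strand). It had 161, 141 and 157 reads, or 7.45, 6.60 and 5.98 CPM. Day 0 was the highest, and both intervals included 1: the log2 ratio was -0.17 at day 3 (-0.51 to 0.16) and -0.32 at day 5 (-0.64 to 0.01). A difference of this size was not resolved at this depth. None of the other 4 class A scavenger receptors on the list reached a mean of 20 reads.

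PMP22 encodes a tetraspan membrane protein of myelin that is also made outside nerve, and it folds inefficiently in the ER (ENSG00000109099, chr17:15229777-15265326, minus strand). It had 920, 1018 and 1044 reads, or 42.6, 47.7 and 39.8 CPM. Day 3 was the highest library, and the log2 ratio was 0.16 at day 3 (0.03 to 0.29) and -0.10 at day 5 (-0.23 to 0.03). The day 3 difference did not hold under 2 other scalings: it was 0.01 by the authors' TPM and 0.09 (-0.04 to 0.22) without the length and GC trends. Its relatives of the epithelial membrane protein family were measured too. EMP1 was at 0.16 at day 3 and 0.17 at day 5, EMP2 at 0.03 and -0.20, and EMP3 at 0.17 and 0.00.

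HGSNAT encodes the lysosomal membrane enzyme that acetylates heparan sulfate during its breakdown (ENSG00000165102, chr8:43140455-43202855, plus strand). It had 663, 655 and 784 reads, or 30.7, 30.7 and 29.9 CPM. The 3 libraries were the most alike of any member. The counting interval of the log2 ratio was -0.16 to 0.16 at day 3, and at day 5 it was -0.19 to 0.11. Of the 8 measured genes of lysosomal heparan sulfate breakdown, 0 passed the 1.5-fold rule at either time, and their median was -0.02 and -0.06. Of that list IDS was at -0.13 at day 3 and 0.06 at day 5 (0.02 to 0.11), and GUSB at 0.07 and -0.12.

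Between the doxycycline libraries, all 7 transcripts were lower at day 5 than at day 3. None passed the 1.5-fold rule, beside 1.57% of genes lower and 3.57% higher. The interval lay below 1 for 4 of 7 (BLOC1S1, SPARC, COL6A1 and PMP22) and above it for 0, beside 23.8% and 22.8% of all genes. The log2 ratio was -0.36 for BLOC1S1 (-0.54 to -0.18), -0.26 for PMP22 (-0.39 to -0.14) and -0.09 for COL6A1 (-0.16 to -0.02). The median of the 7 was -0.26, against 0.01 for all genes, of which 48.8% were below 0. The direction of all 7 did not hold under every scaling. Without the length and GC trends 5 of 7 were below 0, COL6A1 became 0.09 (0.02 to 0.16) and BLOC1S1 became -0.19. By the authors' TPM 4 of 7 were below 0. By TPM the median of all genes was 0.09, and all 7 members lay below it.

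**Figure D3:**
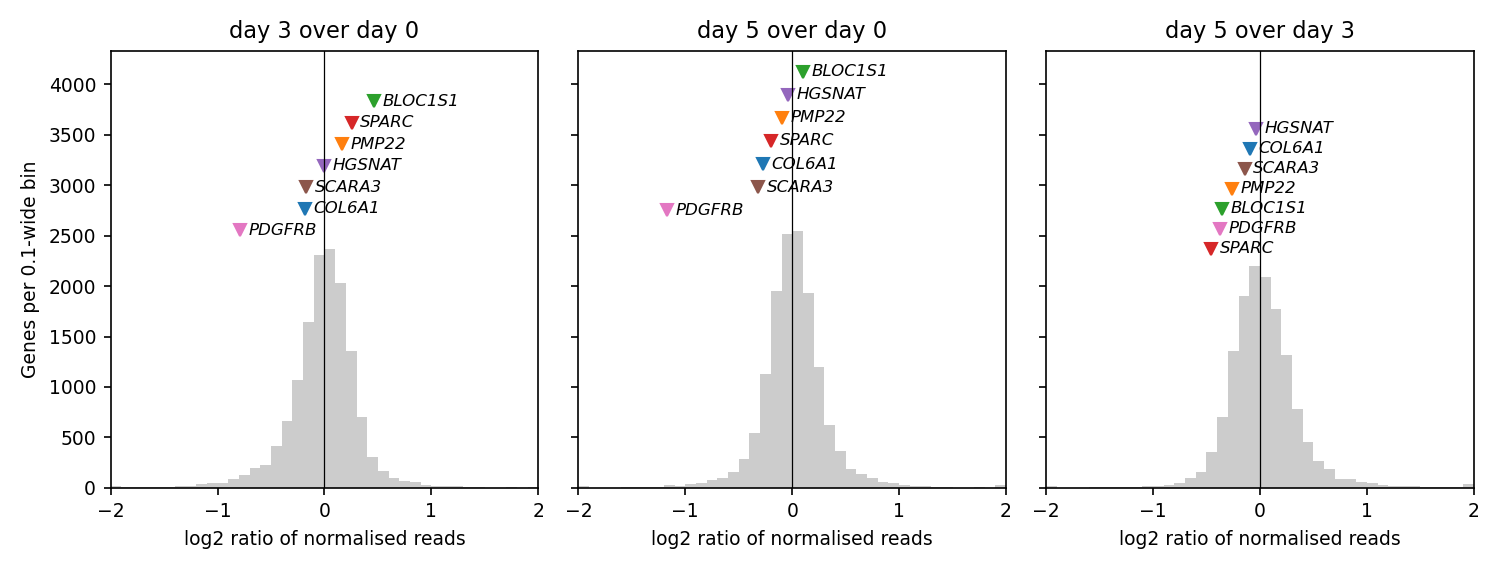
Distribution of log2 ratios over 14244 genes (grey bars, genes per 0.1-wide bin, values beyond 2 placed in the end bins) in the 3 comparisons, with the 7 transcripts as triangles at their ratios. The height of a triangle only separates the names. The members straddle 0 at day 3, and all 7 lie left of 0 at day 5 over day 3.

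Reads that span 2 exons come from spliced RNA only. Counted this way, 2 of 7 members passed the 1.5-fold rule on the lower side at day 3 and at day 5 over day 0, PDGFRB and SCARA3, beside 2.83% and 3.46% of 11344 genes. PDGFRB had 77, 34 and 30 such reads, with log2 ratios of -1.15 at day 3 (-1.79 to -0.56) and -1.62 at day 5 (-2.30 to -1.01). SCARA3 had 48, 25 and 25, with -0.91 (-1.68 to -0.20) and -1.20 (-1.98 to -0.50). Both doxycycline libraries lay below day 0 for both genes. For SCARA3 this differs from its total reads, whose intervals included 1.

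Such reads made up 31.0%, 18.2% and 16.0% of the SCARA3 exon reads in the 3 libraries, with exact (Clopper-Pearson) intervals of 23.8 to 38.9, 12.2 to 25.7 and 10.6 to 22.7. The share changed by -12.7 percentage points at day 3, and 1.29% of 11336 genes had a lower value. At day 5 it changed by -14.9 points, with 1.74% of 11335 genes lower. For PDGFRB the share was 66.4% (57.0 to 74.9), 51.5% (38.9 to 64.0) and 56.6% (42.3 to 70.2). These intervals overlap, as the shares rest on 116, 66 and 53 exon reads. Of all genes, 0.794% had a lower change at day 3 and 6.91% at day 5, a ranking that does not allow for counting error. Over all genes the median change in share was -0.30 points at day 3 and -2.66 points at day 5, so the day 5 library had fewer exon-exon reads in general. SPARC went from 64.6% to 60.0% and 55.7%. The share for BLOC1S1 stayed between 94.0% and 97.5%, as nearly all of its reads cross its short exons.

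Intron reads come mainly from RNA that is not yet spliced. They are set beside exon reads for the 5 members with 20 or more over the 3 libraries, with the other members, BLOC1S1 and SCARA3, having 9 and 11 in all. The background differed between the times. At day 3, 15.8% of 13569 genes passed the 1.5-fold rule with lower intron reads and 2.03% with higher, and the median log2 ratio was -0.27. At day 5 the shares were 5.79% lower and 4.82% higher, with a median of -0.02.

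PDGFRB had 14, 8 and 17 intron reads, so that day 5 was at the level of day 0 once normalised (log2 -1.11 to 1.13), whereas its exon reads at day 5 were at -1.40 (-1.91 to -0.93). Intron reads were 10.8% (6.01 to 17.4), 10.8% (4.78 to 20.2) and 24.3% (14.8 to 36.0) of its reads. These intervals overlap, as do those of the exon and intron ratios at day 5. The differences were not tested. COL6A1 had 75, 34 and 82 intron reads, with a log2 ratio of -1.11 at day 3 (-1.75 to -0.52) and -0.15 at day 5 (-0.62 to 0.32). The day 3 library is the low one, and there COL6A1 was the 1 member that passed the rule with lower intron reads. PMP22 had 24, 40 and 57 intron reads, at 0.74 (-0.01 to 1.55) and 0.95 (0.26 to 1.72), and was the 1 member that passed it with higher intron reads, at day 5. PMP22 exon-exon reads went the other way at day 5, at -0.35 (-0.56 to -0.15). HGSNAT had 62, 51 and 63 intron reads and SPARC 4, 8 and 8, with intervals that included 1.

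**Figure D4:**
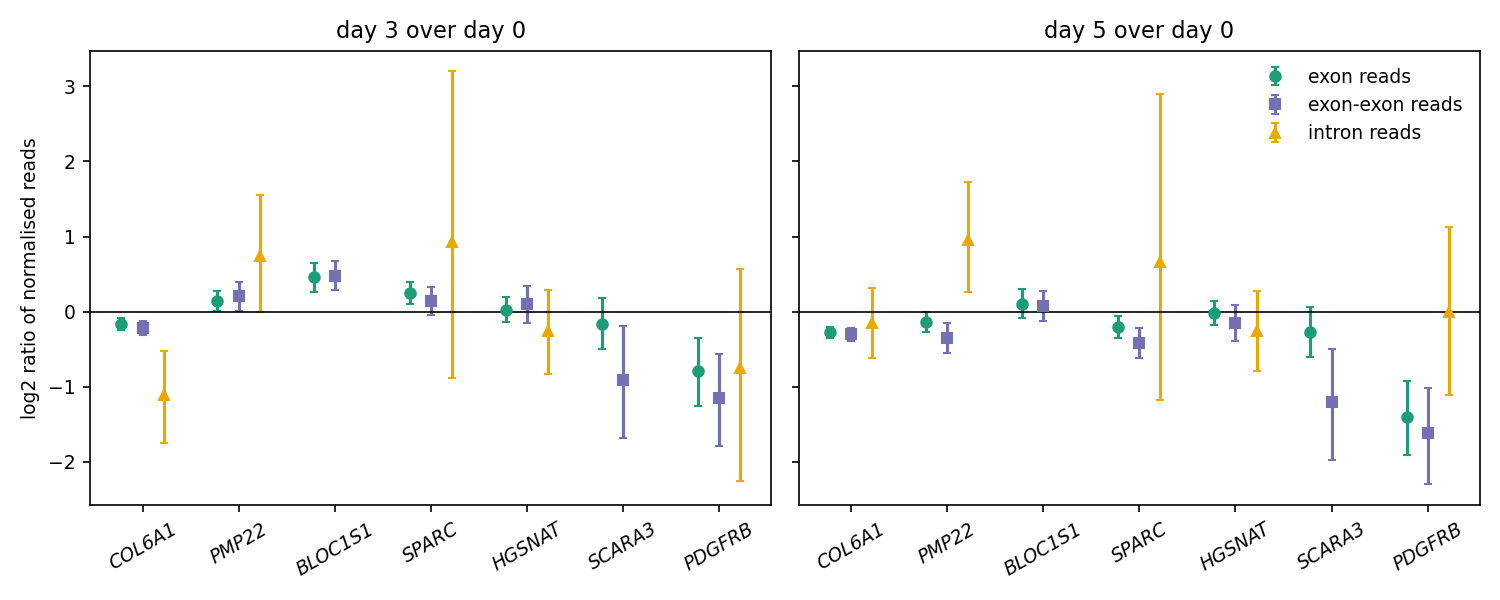
Log2 ratio against day 0 of exon reads (circles), exon-exon reads (squares) and intron reads (triangles) for each transcript at day 3 (left) and day 5 (right), with 95% counting intervals as bars. Intron reads are drawn for the 5 transcripts with at least 20 over the 3 libraries. At day 5 exon-exon reads lie below exon reads for each transcript, lowest for PDGFRB at -1.62 and SCARA3 at -1.20. The day 5 medians over all genes differ the same way, -0.074 for exon-exon reads and 0.005 for exon reads.

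The genes around IRE1 give the setting of these values. ERN1 had 281, 274 and 345 reads, or 13.0, 12.8 and 13.1 CPM, with log2 ratios of -0.02 (-0.26 to 0.23) and 0.02 (-0.22 to 0.25). XBP1 was at 60.8, 85.6 and 69.0 CPM, higher than day 0 in both doxycycline libraries (0.49 at day 3, 0.39 to 0.60; 0.18 at day 5, 0.08 to 0.29). Gene counts do not separate its cut and uncut forms. DNAJB9, an ER co-chaperone gene that XBP1 activates and whose protein holds IRE1 inactive, was at 0.61 at day 3 (0.29 to 0.93) and 0.31 at day 5 (-0.01 to 0.63). HSPA5, the ER chaperone BiP, was at 0.72 and 0.44. Among 26 XBP1 targets, DNAJB9 at day 3 was the 1 gene past the 1.5-fold rule. There 18 had an interval above 1 and 2 below, and at day 5 there were 17 and 0, with medians of 0.19 and 0.16. Over all genes, 23.1% were above and 19.6% below at day 3, beside 21.3% above and 20.8% below at day 5. PDIA3, a disulfide isomerase, was at 0.43 at day 3, and SSR3, a subunit of the translocon-associated complex, at 0.39 at day 5.

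Of the 4 stress sensors ERN1, EIF2AK3, ATF6 and ATF6B, 0 passed the 1.5-fold rule. ATF6B was the 1 gene of them with an interval excluding 1, at -0.21 at day 5 (-0.32 to -0.11). Of the genes of IRE1 and XBP1 mRNA ligation, 8 were measured. At day 3 they had 4 intervals above 1 and 0 below, beside 23.1% and 19.6% of all genes. At day 5 there were 4 above and 1 below, beside 21.3% and 20.8%. Among the 8, ZBTB8OS, which encodes the ligase co-factor archease, was at 0.36 and 0.42. C2orf49, which encodes the ligase complex subunit ashwin, was at -0.08 and 0.29. RTCB, the ligase itself, was at 0.15 and -0.15. Of 10 genes that regulate IRE1 or its complex, HSPA5 and DNAJB9 passed the rule on the higher side at day 3 and SYVN1 on the lower side at both times. Of all genes, 2.02% passed it on the higher side at day 3. On the lower side 3.52% did at day 3 and 2.08% at day 5.

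Cut mRNA is cleared by the exonuclease XRN1 and by the exosome with the Ski complex. Of 18 measured genes of this group 0 passed the 1.5-fold rule at either time. At day 3 there were 6 with an interval above 1 and 3 below, beside 23.1% and 19.6% of all genes. At day 5 there were 6 and 2, beside 21.3% and 20.8%. The median of the group was 0.09 at day 3 and 0.08 at day 5. EXOSC8, an exosome subunit, was at 0.36 and 0.39. EXOSC4, another, was at 0.29 and -0.04, and the Ski complex gene WDR61 was at 0.30 at day 3. XRN1 was at -0.25 at day 3 (-0.42 to -0.08) and 0.23 at day 5 (0.09 to 0.38). SKIV2L, the Ski complex helicase, was at 0.10 and -0.27.

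Other mRNAs reported as IRE1 substrates formed a list of 11, of which 8 had a mean of 20 or more reads. None passed the 1.5-fold rule against day 0. At day 3, 1 had an interval above 1 and 2 below, beside 23.1% and 19.6% of all genes. At day 5 there were 0 above and 5 below, beside 21.3% and 20.8%. The median of the list was -0.01 at day 3 and -0.14 at day 5. Without the length and GC trends the day 5 counts were 1 above and 2 below, and the median was -0.05. DGAT2, an enzyme of triglyceride synthesis, had 92, 97 and 78 reads and was at -0.52 at day 5 (-0.97 to -0.07). At day 5 over day 3 it was at -0.61 (-1.06 to -0.17), the 1 gene of the list past the 1.5-fold rule in that comparison. ERGIC3, a membrane protein of the early secretory pathway, was at 0.28 at day 3 (0.22 to 0.34) and -0.14 at day 5. Its highest library was day 3 and its lowest day 5, as for SPARC. TGOLN2, a trans-Golgi protein, was at -0.20 at day 3 and -0.09 at day 5. CES1, a gene best known in liver, had 3, 1 and 30 reads, next to 0, 0 and 114 reads for ALB. Its low mean kept it out of the counts.

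The genes with the most similar pair of log2 ratios (day 3 and day 5 over day 0) were looked up among 9787 protein-coding genes with a mean of 200 or more reads, by Euclidean distance. For PDGFRB the nearest was SYVN1, the gene the hairpin targets, at a distance of 0.14, and then SMAD6, at 0.39, with 0 genes within 0.1. PDGFRB has a mean of 91.3 reads, so genes of its own depth were not among those searched. Its counting intervals, -1.23 to -0.37 at day 3 and -1.61 to -0.74 at day 5, are wider than these distances. The other members had many neighbours: 73 genes lay within 0.1 of BLOC1S1, 162 of SPARC, 251 of SCARA3, 355 of COL6A1, 824 of PMP22 and 1376 of HGSNAT. The nearest were TOR2A and CDK2AP2 for BLOC1S1, FKBP8 and C20orf27 for SPARC, and PIEZO1 and ARRDC1 for SCARA3. They were ABCC1 and FBXO41 for COL6A1, TRIM65 and PSMD9 for PMP22, and RIPK1 and KNOP1 for HGSNAT. Each pair of ratios rests on the same 3 libraries and on 1 shared day 0 library.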

How the data were processed

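RNA-seq was compared in 3 libraries, 1 per time. RNAiso Plus served for total RNA extraction and a SMARTer kit for the libraries, per the labels' protocols. The deposited counts (total, unique, exon, exon-exon and intron reads per gene) and the deposited TPM values are the authors' own, per the file headers. Which aligner and counter were used is not given in the sources. The submitters' processing notes name the mouse build mm10, but the identifiers are human, and 97.6% of the 57980 found in GENCODE 29 match its GRCh38 start and end. PMP22 is 1 of those that do not, and its position is given as the files have it. The 3 sample columns of a further table, for the whole series, were not used.

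Normalisation of total gene reads was by TMM (edgeR 4.0.16, R 4.3.3), with factors of 1.01, 0.968 and 1.02. Log2 ratios used a prior count of 0.5, and the 95% intervals are exact conditional (Clopper-Pearson) intervals that cover counting error only. Genes with a mean of 20 or more reads were compared. Calculations used Python 3.11.15, numpy 2.4.6, scipy 1.17.1 and statsmodels 0.14.6, and the steps were tested on simulated data. Alternatives were exon reads, unique reads, library totals, size factors from DESeq2 1.42.0, the TPM of the authors plus 0.5, a prior count of 5, leaving out mitochondrial and the 20 most abundant genes, removal of length and GC trends (lowess, span 0.3), other minimum reads and other folds. The search for CNGCAGN loops was chosen after seeing the data.

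The members and all gene lists were chosen with earlier results of these data known, so no list is independent evidence. Named genes are the members, SYVN1, ERN1, XBP1, DNAJB9 and HSPA5. Added to these are, from each list, up to 3 genes with a mean of 50 or more reads, an interval excluding 1 and the largest ratios, plus members' close relatives and the 2 genes nearest each member. A few genes that the rule gives are not reported here. RTCB, XRN1, SKIV2L, CES1 and ALB are named outside this rule, after their values were seen. EIF2AK3, ATF6, ITGA7, AC009779.3 and further genes of the epithelial and colon marker list are also named outside it. In the marker lists the rule gives KRT19, at 0.61 at day 3 over day 0, and COL5A1, at -0.27 at day 5 over day 0. It also gives FN1, MYH11 and MCAM.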

Additional observations from a re-analysis of the deposited data

Results flagged for a closer look

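The summed reads of 15 markers of liver, intestine and blood, none of them a member, were above the day 0 level in both doxycycline libraries. They came to 8 reads at day 0, 46 at day 3 and 683 at day 5. At 1 TPM or more were 0, 1 and 12 of the 15. Of these genes 5 had a mean of 20 or more reads and are among the 14244 genes that the 7 transcripts are set beside. In CPM none of the 7 transcripts was higher at day 5 than at day 3, and whether these reads bear on any of their values was not tested.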

How the results depend on the processing

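No paired analysis was possible because each time has 1 library, and no library could be left out. Of 168 recomputed member ratios, 160 stayed inside the counting interval, and neither value of PDGFRB against day 0 changed direction. The count of members past the rule became 0 at day 3 with a minimum mean of 200 reads, which leaves out PDGFRB and SCARA3, and 0 with a 2-fold rule. It became 5 with the interval alone. At day 5 over day 0 it became 0 with a minimum of 200 reads and 3 with the interval alone. At day 5 over day 3 it became 1 with unique reads (BLOC1S1, log2 -0.64) and 4 with the interval alone. The median at day 3 became 0.16 with a minimum of 200 reads. Without the length and GC trends, 2 of 7 members had an interval above 1 at day 3 and 4 of 7 below 1 at day 5, PMP22 added. By the authors' TPM, COL6A1 was -0.30 at day 3 and 0.01 at day 5 over day 3, and it was -0.02 there with library totals. The share of all genes past the rule stayed within 1.5 times in 30 of 30 recomputations. PDGFRB rests on 70 to 130 reads per library, and SCARA3 on 141 to 161.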
